A study of Mus musculus with 68 samples.

Results

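The epidermal keratins described here are Krt5 and Krt14, the pair of the basal layer, and Krt1, Krt10, Krt2 and Krt77, keratins of the layers above it. They were taken by gene symbol, and all their probesets were used. These were 6 of the 18193 genes that had a probeset of their own on the array, and they carried 8 of the 34945 probesets with 1 gene symbol, 3 of them for Krt14 and 1 for each of the other genes. A further probeset that is shared by Krt14 and Krt17 was left out.

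Keratin filaments are built from pairs of 1 type I and 1 type II keratin. Basal keratinocytes, which sit on the basement membrane and divide, make the type I keratin K14 and the type II keratin K5. Cells that leave the basal layer switch to K10 (type I) and K1 (type II), and K2 is added in the upper layers. In mouse skin carcinogenesis K1 and K10 are known as markers of differentiated papillomas that are lost as tumors progress to carcinoma. Krt77 encodes a further type II keratin, once called K1b, which in human skin is known from sweat gland ducts.

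The data were 68 expression arrays of papillomas from 37 FVBBX mice, bred by crossing SPRET/Ei with FVB/N and the hybrids back to FVB/N, with 2 papillomas from 31 mice and 1 from the other 6. All mice were 8 to 12 weeks old when their back skin received DMBA, a carcinogen that starts tumors (25 µg in the treatment protocol, written as 25 mg in the growth protocol), and all then had 20 weeks of TPA, a phorbol ester that promotes them, so no untreated skin is among these samples. Classes were set by the number of papillomas at 20 weeks: 12 susceptible mice had more than 7 (9 to 35 papillomas, 22 arrays), 6 resistant mice had fewer than 2 (0 or 1 papilloma, 11 arrays), and 19 intermediate mice had 2 to 7 (35 arrays). The coat was agouti in 4 of 12 susceptible, 5 of 6 resistant and 8 of 19 intermediate mice and white in the rest, and 31 mice also gave a carcinoma array while 6 did not. By label 7 of 12 susceptible, 4 of 6 resistant and 10 of 19 intermediate mice were female and the rest male. Each mouse is a different recombinant of the 2 genomes, so the mouse was taken as the replicate and the log2 values of its papillomas were averaged.

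Levels are log2 RMA signals, on which a difference of 1 is a doubling, and a probeset was compared only with itself across samples. Array medians lay between 5.18 and 5.28. In 8 arrays of 6 mice the level of Xist or Eif2s3y went against the labelled sex. The Actb control probesets at the 3' and 5' end of the transcript are a standard check of RNA integrity and labelling, and their log2 ratio was 0.47 to 1.47 in susceptible arrays (median 0.78), -0.27 to 1.71 in resistant arrays (median 0.59) and 0.48 to 2.13 in intermediate arrays (median 0.66). It was below 0 in 2 arrays, papilloma 1 of resistant mouse 32 (-0.24) and papilloma 1 of resistant mouse 37 (-0.27).

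Of the 6 genes 4 lie in the type II keratin cluster of chromosome 15 (Krt5, Krt2, Krt1 and Krt77) and 2 in the type I cluster of chromosome 11 (Krt14 and Krt10). In GRCm38.p6 Krt5 spans chr15:101707069-101712905, Krt2 chr15:101810689-101818956, Krt1 chr15:101845426-101850786 and Krt77 chr15:101858731-101869706, so the last 3 are close neighbours. Krt10 spans chr11:99385254-99397449 and Krt14 chr11:100203162-100207510. The 100 bases before the RefSeq start (GRCm38.p6) are printed for 1 gene of each layer, Krt5 and Krt77, both on the minus strand. Capitals mark TATAAA or TATATA, searched on both strands, and overlapping matches are run together.
Krt5, basal, chr15:101712906-101713005: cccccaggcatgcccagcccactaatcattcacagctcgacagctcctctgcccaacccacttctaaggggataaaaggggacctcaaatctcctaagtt
Krt77, suprabasal, chr15:101869706-101869805: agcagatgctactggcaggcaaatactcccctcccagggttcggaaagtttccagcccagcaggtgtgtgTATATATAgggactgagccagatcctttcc
A match lay at bases -30 to -23 of Krt77, and neither string was found in the window of Krt5. Among 32851 RefSeq promoters of the same length, 5.56% held TATAAA, 2.19% held TATATA and 7.03% held either. A match is a description of the letters. Variants of these strings were not searched, and a link to the keratin levels was not tested. Krt1 is named without a sequence, and the table's starts for Krt10, Krt14 and Krt2 lie 8085, 1480 and 787 bases inside the annotated gene, so those windows are not printed.

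The 2 basal keratins were high in every papilloma and varied little. Krt5 lay between 12.78 and 14.31 over the 68 arrays and averaged 13.87 ± 0.27 over mice (SD, n = 37). The main Krt14 probeset, the one of highest mean, averaged 14.62 ± 0.16, and its range over mice was 1.78-fold. In all 68 arrays it lay within 1 log2 unit of the highest value of the whole table (14.81), so little room was left above it on the scale. The same held for Krt5 in 48 arrays, for Krt10 in 34 and for Krt1 in 33. The main Krt14 probeset is of the x_at kind, whose probes can also match related transcripts. The other Krt14 probesets averaged 14.43 ± 0.21 and 9.27 ± 0.47.

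The suprabasal keratins had wider ranges over mice, which for Krt1 and Krt10 were set by 2 low mice. Krt1 averaged 13.45 ± 1.12 over the 37 mice, with a range of 68.8-fold, and Krt10 averaged 13.54 ± 0.81 with a range of 15.4-fold. Resistant mice 32 and 34 had 8.26 and 10.72 for Krt1, and all other mice lay between 12.35 and 14.36. For Krt10 these 2 mice had 10.45 and 11.83, and all others lay between 12.27 and 14.40. Krt77 averaged 8.27 ± 1.43, with a range of 58.2-fold. Krt2 averaged 4.65 ± 1.26 with a range of 17.6-fold, and it was above its array's own median in only 18 of 68 arrays, against 62 arrays for Krt77, 67 for Krt1 and all 68 for Krt10, Krt5 and Krt14. Most Krt2 values therefore lie in the lower part of the array's signals, where small differences carry little. All 8 probesets passed the filter on low values.

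**Figure D1:**
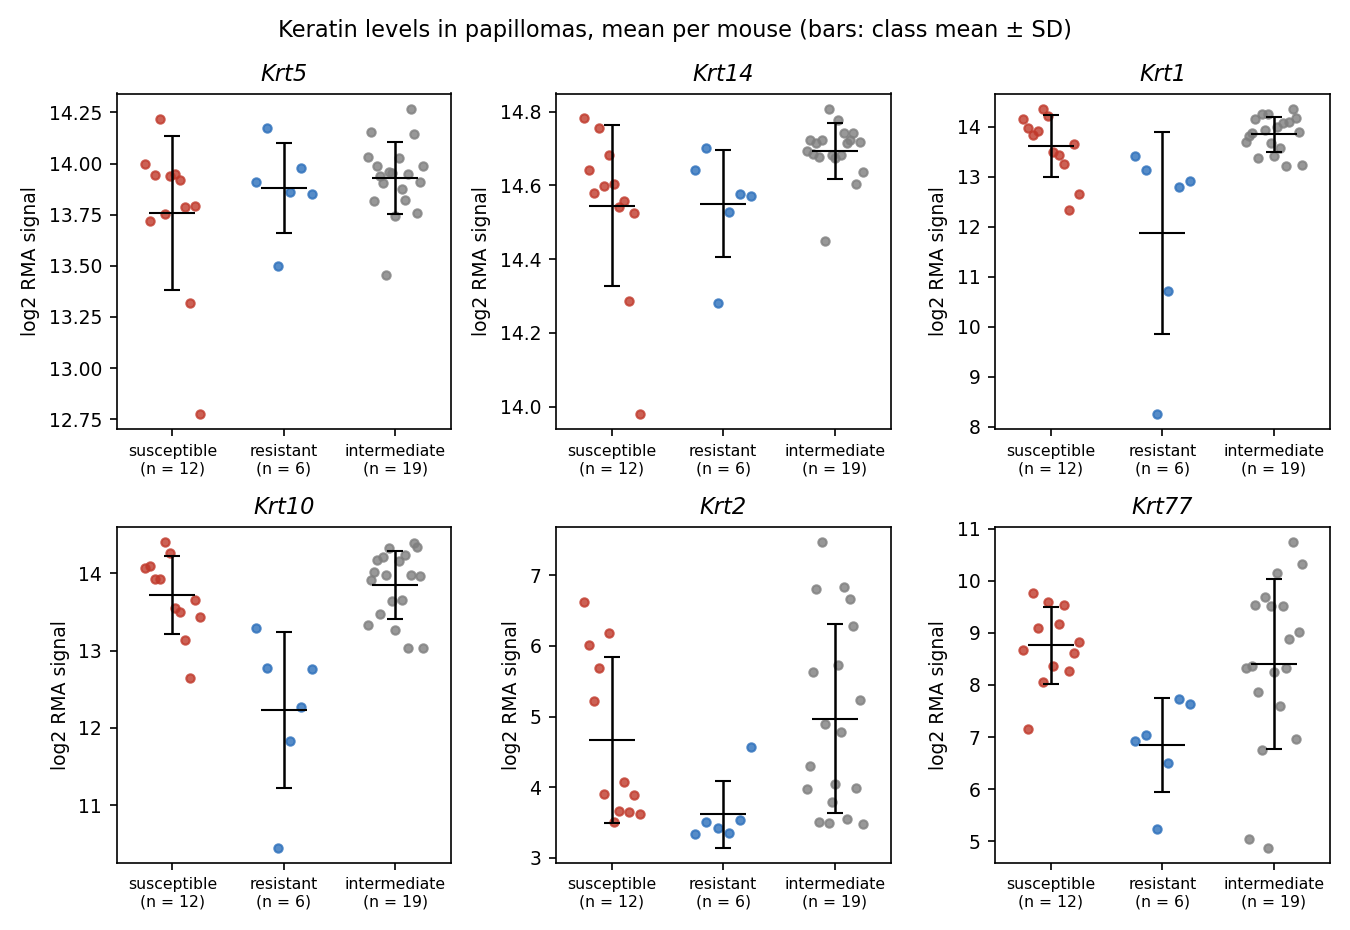
Mean log2 RMA signal per mouse (y axis, a scale of its own for each gene) of the 6 keratins in susceptible, resistant and intermediate mice, with 1 point per mouse and bars for the class mean ± SD. Krt1, Krt10 and Krt77 of the resistant mice sit below or in the lower part of the range of the susceptible mice, while Krt5 and Krt14 of the classes lie over each other.

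3 arrays stood apart in the suprabasal keratins. Papilloma 1 of resistant mouse 32 had a Krt1 level of 4.29 and a Krt10 level of 7.14, against 12.23 and 13.77 in papilloma 2 of the same mouse, while Krt5 (13.74 and 13.26) and Krt14 (14.11 and 14.46) stayed high in both. Papilloma 1 of resistant mouse 34 had 8.55 for Krt1 and 10.78 for Krt10, against 12.88 for both genes in its papilloma 2. Papilloma 1 of resistant mouse 37 had 11.78 for Krt1 and 11.46 for Krt10, against 14.04 and 14.06 in its papilloma 2. Mice 32, 34 and 37 also had the latest first papilloma of the susceptible and resistant mice with a time given. Values without the arrays of low Krt1 (mice 32 and 34) and without those of low Actb ratio (mice 32 and 37) are therefore given beside the class differences. Each of these settings keeps 1 of the 3 arrays, and no fit without all 3 was run. All 3 are papilloma 1, so class differences from papilloma 1 alone hold all of them. In bulk tumor RNA, fewer suprabasal cells and less keratin RNA per cell cannot be told apart.

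Papillomas of susceptible mice had higher Krt1, Krt10, Krt77 and Krt2 than those of resistant mice on average, and Krt5 and Krt14 were close to equal. None of the 8 keratin probesets passed an adjusted p of 0.05 in limma (Benjamini-Hochberg over all 21581 tested probesets), where 0.0510% of all probesets, 11 of them, did. At an unadjusted p under 0.05 there were 4 of 8, all higher in susceptible mice, against 5.57% of all probesets higher at that limit and 9.52% in both directions. For no keratin probeset were the classes free of overlap, as they were for 0.0788% of all probesets. The difference was over 1 log2 unit for 4 of the 8 keratin probesets, against 0.829% of all probesets. Without the 2 arrays of low Krt1 it was 2 of 8 (Krt77 and Krt2), against 0.371% of all probesets, and without those of low Actb ratio 1 of 8 (Krt77), against 0.412%. At an unadjusted p under 0.05 there were then 4 of 8 without the arrays of low Krt1 and 3 of 8 without those of low Actb ratio, against 3.63% and 3.29% of all probesets higher at that limit. Krt2 was in both kinds of count with all arrays and without those of low Krt1. It passed the filter on low values only through 7 of 22 susceptible and 11 of 35 intermediate arrays. None (0 of 11) of the resistant arrays had it above their median, so its place in these counts carries no weight.

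Krt77, the further type II keratin, had the smallest p of the 8 probesets. Its level was 7.16, 8.75 and 9.76 (lowest, median and highest) in the 12 susceptible mice, 5.24, 6.98 and 7.74 in the 6 resistant mice and 4.88, 8.36 and 10.74 in the 19 intermediate mice. The highest resistant mouse was exceeded by 11 of 12 susceptible mice. The susceptible minus resistant difference was 1.91 ± 0.37 (SE), a 3.76-fold higher level, with a limma p of 5.85e-05 and an adjusted p of 0.0546. An exact permutation of the classes over the 18 mice (18564 splits, two-sided) gave p = 0.000215. The difference was 1.53 without the 2 arrays of low Krt1 (adjusted p = 0.348 in limma) and 1.66 without those of low Actb ratio (adjusted p = 0.524). The adjusted limma p lay under 0.05 after leaving out mouse 6 (0.0210), mouse 29 (0.0423) or mouse 37 (0.0430), each in turn, and was highest without mouse 32 (0.150). With the spread estimated from all 37 mice in 3 groups, the SE was 0.63 and the adjusted limma p was 0.203.

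Krt10, which encodes the type I partner of K1, had the next smallest p. Its level was 12.65, 13.79 and 14.40 in susceptible mice, 10.45, 12.52 and 13.29 in resistant mice and 13.03, 13.97 and 14.39 in intermediate mice. The highest resistant mouse was exceeded by 10 of 12 susceptible mice. The difference was 1.49 ± 0.32 (SE), 2.80-fold, with a limma p of 0.000211 and an adjusted p of 0.0812, and the exact permutation gave p = 0.000377. Without the 2 arrays of low Krt1 it was 0.76 (adjusted p = 0.661 in limma), and without those of low Actb ratio it was 0.72 (adjusted p = 0.894). When all 37 mice in 3 groups shared the estimate of the spread, the same difference had an adjusted limma p of 0.0150. From papilloma 1 of each mouse alone it was 2.40 (adjusted p = 0.147 in limma).

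Krt1, which encodes the type II partner, differed by a similar amount with a wider error. Its level was 12.35, 13.75 and 14.36 in susceptible mice, 8.26, 12.86 and 13.43 in resistant mice and 13.23, 13.90 and 14.36 in intermediate mice. The lowest resistant values were those of mice 32 (8.26) and 34 (10.72), and the other 4 resistant mice, between 12.80 and 13.43, lay within the range of the susceptible mice. The difference was 1.74 ± 0.57 (SE), 3.34-fold, with an adjusted limma p of 0.271 and an exact permutation p of 0.00609. Without the 2 arrays of low Krt1 it was 0.72 ± 0.26 (adjusted p = 0.761 in limma), without those of low Actb ratio 0.89 ± 0.38 (adjusted p = 0.901), and without mouse 32 as a whole 1.01. From papilloma 1 of each mouse alone it was 2.89 (adjusted p = 0.258 in limma).

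Krt2, the keratin of the upper layers, was low in most mice. Its level was 3.51, 3.99 and 6.62 in susceptible mice, 3.33, 3.46 and 4.57 in resistant mice and 3.49, 4.78 and 7.47 in intermediate mice. It was above its array's median in 7 of 22 susceptible arrays, 0 of 11 resistant arrays and 11 of 35 intermediate arrays. The difference of 1.05 ± 0.47 (SE) had an adjusted limma p of 0.482 and an exact permutation p of 0.0563. It was 1.00 without the arrays of low Krt1 and 0.98 without those of low Actb ratio, so it did not rest on them.

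The basal keratins did not separate the classes. Krt5 was 12.78, 13.86 and 14.22 in susceptible mice, 13.50, 13.89 and 14.18 in resistant mice and 13.45, 13.95 and 14.27 in intermediate mice. Its difference was -0.12 ± 0.16 (SE), with an adjusted limma p of 0.893. Krt14 was 13.98, 14.59 and 14.78 in susceptible mice, 14.28, 14.57 and 14.70 in resistant mice and 14.45, 14.71 and 14.81 in intermediate mice. Its 3 probesets (in falling order of mean level) differed by -0.01 ± 0.10, 0.06 ± 0.13 and 0.24 ± 0.23 (SE), with adjusted limma p of 0.995, 0.945 and 0.809, and the sign of the first turned under several alternatives. The lowest Krt5 and Krt14 levels of the series were both those of susceptible mouse 36, which gave 1 papilloma and had the highest papilloma number (35).

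**Figure D2:**
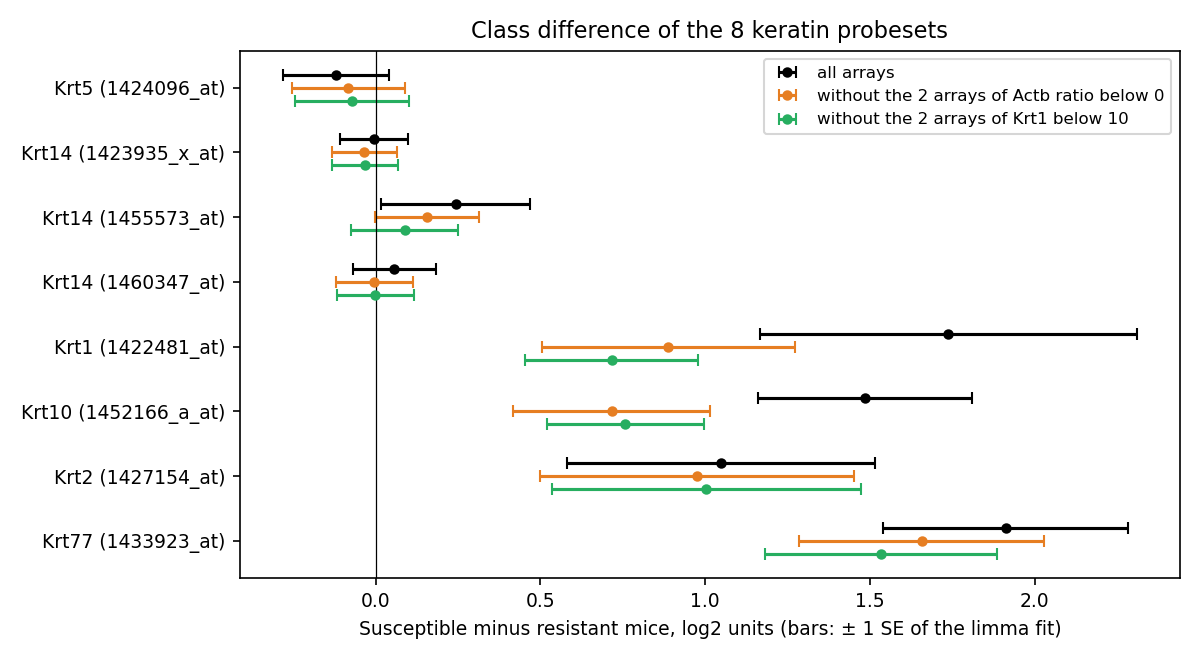
Susceptible minus resistant difference (x axis, log2 units, bars ± 1 SE of the limma fit) of the 8 keratin probesets with all arrays, without the 2 arrays of Actb ratio below 0 and without the 2 arrays of Krt1 below 10. The Krt5 and Krt14 points lie around 0, Krt1 goes to 0.89 and 0.72 and Krt10 to 0.72 and 0.76 without those arrays, and Krt77 stays above 1.5.

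The log ratio of suprabasal to basal keratin, the mean of Krt1 and Krt10 minus the mean of Krt5 and Krt14, is a description with no test. Its value compares samples and not genes. It was -1.30, -0.44 and 0.21 (lowest, median and highest) in susceptible mice, -4.53, -1.61 and -0.92 in resistant mice and -1.20, -0.38 and 0.08 in intermediate mice. The highest resistant mouse was exceeded by 10 of 12 susceptible mice, and 5 of 6 resistant mice were lower than any susceptible one. The classes averaged -0.49 ± 0.42 (SD, n = 12) for susceptible and -2.16 ± 1.34 (SD, n = 6) for resistant mice, a difference of 1.67 ± 0.41 (SE). Intermediate mice averaged -0.46 ± 0.40 (SD, n = 19), next to the susceptible mean.

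Krt1 minus Krt5, the type II ratio, differed by 1.86 ± 0.54 (SE) between susceptible and resistant mice, and Krt10 minus Krt14, the type I ratio, by 1.49 ± 0.30. Without the 2 arrays of low Krt1 they differed by 0.79 ± 0.19 and 0.79 ± 0.23, and without those of low Actb ratio by 0.97 ± 0.36 and 0.75 ± 0.30. The suprabasal side had an SD of 0.95 over the 37 mice, against 0.21 for the basal side, which lies nearer the top of the scale. The SD of 0.95 includes the low levels of mice 32 and 34. The class difference of the whole ratio was 0.79 ± 0.20 (SE) without the 2 arrays of low Krt1, 0.86 ± 0.32 without those of low Actb ratio, 2.75 ± 0.81 from papilloma 1 of each mouse alone, and between 1.20 (without mouse 32) and 1.92 with 1 of the 18 mice left out.

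**Figure D3:**
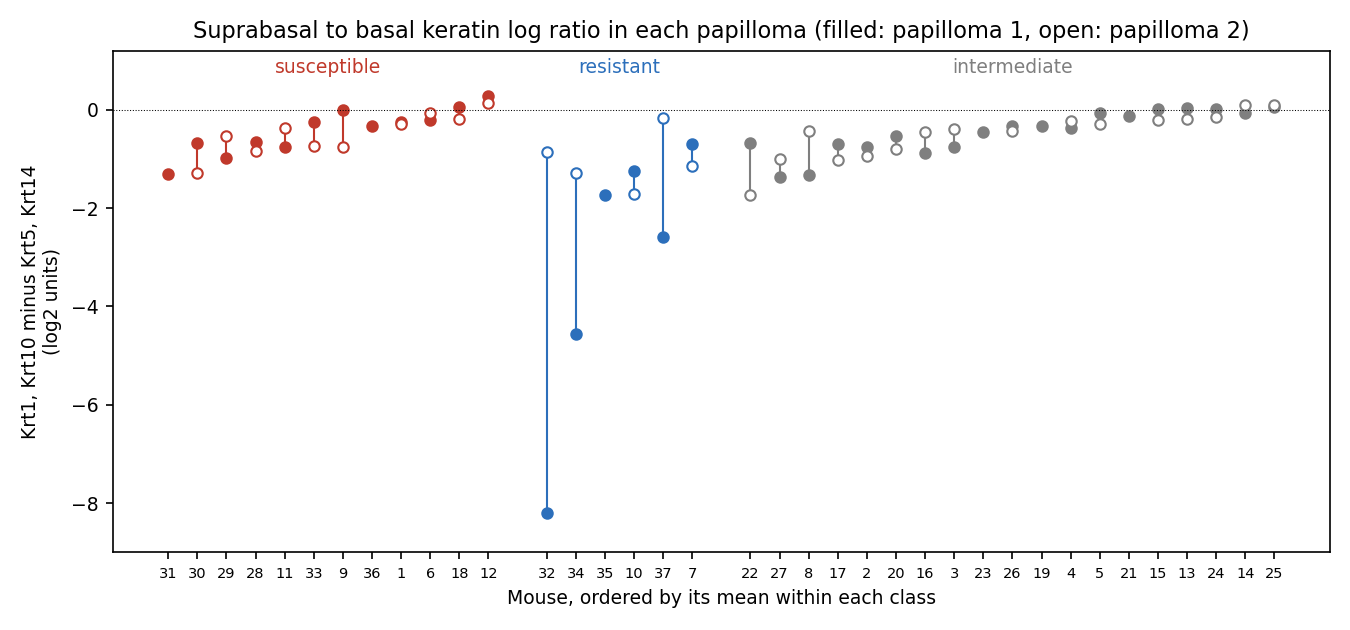
Log ratio of suprabasal to basal keratin (y axis, log2 units) in each of the 68 papillomas, by mouse (x axis, ordered by mouse mean within each class), with papilloma 1 filled, papilloma 2 open and a line joining both. Papilloma 1 of mice 32, 34 and 37, all resistant, lies below -2, and no other papilloma does.

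Mice entered the study in 7 start cohorts, of which 3 held both classes. In the cohort with 2 susceptible and 2 resistant mice, the ratio differed by 2.49, in that with 3 and 1 by 1.24, and in that with 1 and 1 by 2.42, each higher in susceptible mice. Krt10 differed by 1.89, 1.30 and 1.82 in these cohorts and Krt77 by 1.91, 1.94 and 2.10. Krt5 was lower in susceptible mice in each of them, with differences of -0.46, -0.20 and -0.07. The first of these cohorts holds mouse 32 and the third mouse 34. Without the arrays of low Krt1 the ratio differed by 0.65 in the first and 0.78 in the third, Krt10 by 0.23 and 0.77, and Krt77 by 1.58 and 0.50. These cohorts are too small for a test of their own. Coat goes with class in these mice, and with sex and coat as covariates the limma differences were 1.69 for Krt77, 1.39 for Krt10 and 1.45 for Krt1 (adjusted p = 0.361, 0.432 and 0.679).

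Against the papilloma number of all 37 mice, taken as log2 of the count at 20 weeks plus 1, the suprabasal keratins had positive slopes and the basal ones slopes near 0. Per doubling the slope was 0.47 ± 0.17 for Krt77, 0.35 ± 0.13 for Krt1, 0.31 ± 0.09 for Krt10 and 0.17 ± 0.16 for Krt2 (SE), and -0.06 ± 0.03 for Krt5 and -0.03 ± 0.02 for Krt14. None of the 8 probesets passed (adjusted limma p from 0.211 for Krt10 upward), where 0.00463% of all probesets did, and 3 of 8 had an unadjusted p under 0.05, against 10.9% of all probesets. Without the 2 arrays of low Krt1 the slopes were 0.39 ± 0.16 for Krt77, 0.12 ± 0.07 for Krt1 and 0.13 ± 0.07 for Krt10, and without those of low Actb ratio 0.41 ± 0.17, 0.15 ± 0.09 and 0.12 ± 0.08, with Krt77 alone at an unadjusted p under 0.05 in both. Intermediate mice averaged 13.85 for Krt1, 13.85 for Krt10 and 4.97 for Krt2, above the susceptible means of 13.61, 13.72 and 4.67. For Krt77 the intermediate mean was below the susceptible one (8.41 against 8.76). The slopes of Krt1, Krt10 and Krt2 therefore do not describe a graded rise over the groups. In intermediate mice alone 0 of 8 probesets passed in limma, as 0 of all probesets did. The slope uses the 18 mice of the classes again and is no separate evidence.

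Agouti and white mice, with sex as a covariate, did not differ in any keratin probeset in limma (0 of 8, against 0.0741% of all probesets). Krt1 averaged 13.17 ± 1.54 in agouti mice (SD, n = 17) and 13.69 ± 0.48 in white mice (SD, n = 20), a difference of -0.57 ± 0.34 (SE) with an adjusted p of 0.693. The agouti mice include mice 32 and 34, with the lowest Krt1 levels of the series (8.26 and 10.72). No coat fit without these mice was run. Krt14 was 14.57 ± 0.19 in agouti and 14.67 ± 0.12 in white mice (adjusted p = 0.635). At an unadjusted p under 0.05 there were 2 of 8, both Krt14, against 7.87% of all probesets.

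Mice with and without a carcinoma array had close mean keratin levels, but only 6 mice were without one and the errors were wide. The 6 include mouse 34 with its low Krt1 level. Krt1 averaged 13.47 ± 1.09 in the 31 mice with one and 13.39 ± 1.38 in the 6 without (SD), and Krt10 averaged 13.54 ± 0.79 in mice with one and 13.58 ± 1.00 in mice without (SD). The differences ran from -0.28 ± 0.54 (SE) for Krt2 to 0.15 ± 0.62 for Krt77. None of the 8 passed in limma, as none of all probesets did (0 of 21581), and none of the 8 had an unadjusted p under 0.05, which 291 probesets (1.35%) had.

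Papillomas of the same mouse were compared by the intraclass correlation, the share of variance that lies between mice, over the 31 mice with 2 papillomas. It was 0.590 for Krt2 (F test, adjusted p = 0.000797), 0.567 for Krt77 (adjusted p = 0.00127), 0.555 for Krt14 (adjusted p = 0.00163) and 0.388 for Krt5 (adjusted p = 0.0223). It was 0.303 for Krt1 (F test p = 0.0440, adjusted p = 0.0597) and 0.153 for Krt10 (adjusted p = 0.220), and these 2 of the 8 probesets did not pass. With the Actb ratio removed Krt1 did (0.332, adjusted p = 0.0448). The background was high, with 71.0% of all tested probesets past the same limit and a median of 0.435, so 6 of 8 is close to it.

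The low value of Krt10 went with a few pairs. Without mice 32 and 34 its correlation was 0.367 (adjusted p = 0.0326), that of Krt1 was 0.295 (adjusted p = 0.0706), and that of the ratio was 0.378, against 0.174 with all 31 mice. The median absolute difference between the 2 papillomas of a mouse was 0.04 for Krt14, 0.10 for Krt5, 0.26 for Krt1, 0.32 for Krt10, 0.47 for Krt2 and 0.85 for Krt77. The largest was 7.93 for Krt1 and 6.63 for Krt10, both in mouse 32.

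In Krt1, Krt10, Krt77, Krt5, Krt14 and the ratio the median difference was largest in pairs of resistant mice, and in Krt2 it was smallest there. For Krt5 it was 0.212 in resistant, 0.110 in susceptible and 0.092 in intermediate pairs, and for Krt14 0.063, 0.034 and 0.055. Krt2 was above its array's median in 0 of 11 resistant arrays, which limits what its small gaps there can show. For the ratio the median absolute difference was 0.31 in 10 susceptible pairs, 2.41 in 5 resistant pairs and 0.22 in 16 intermediate pairs. More than 1 log2 unit lay between the papillomas in 0 of 10 susceptible, 3 of 5 resistant and 1 of 16 intermediate pairs, and the 3 resistant pairs were those of mice 32, 34 and 37. For Krt2 the median was 0.43 in susceptible, 0.23 in resistant and 0.64 in intermediate pairs, with 4 of 10, 0 of 5 and 4 of 16 over 1 unit. Krt77 differed by more than 1 unit in all 5 resistant pairs (1.33 to 3.21), in 4 of 10 susceptible pairs and in 4 of 16 intermediate pairs, and the largest gap, 5.10, was in intermediate mouse 27. This difference in spread was not tested.

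**Figure D4:**
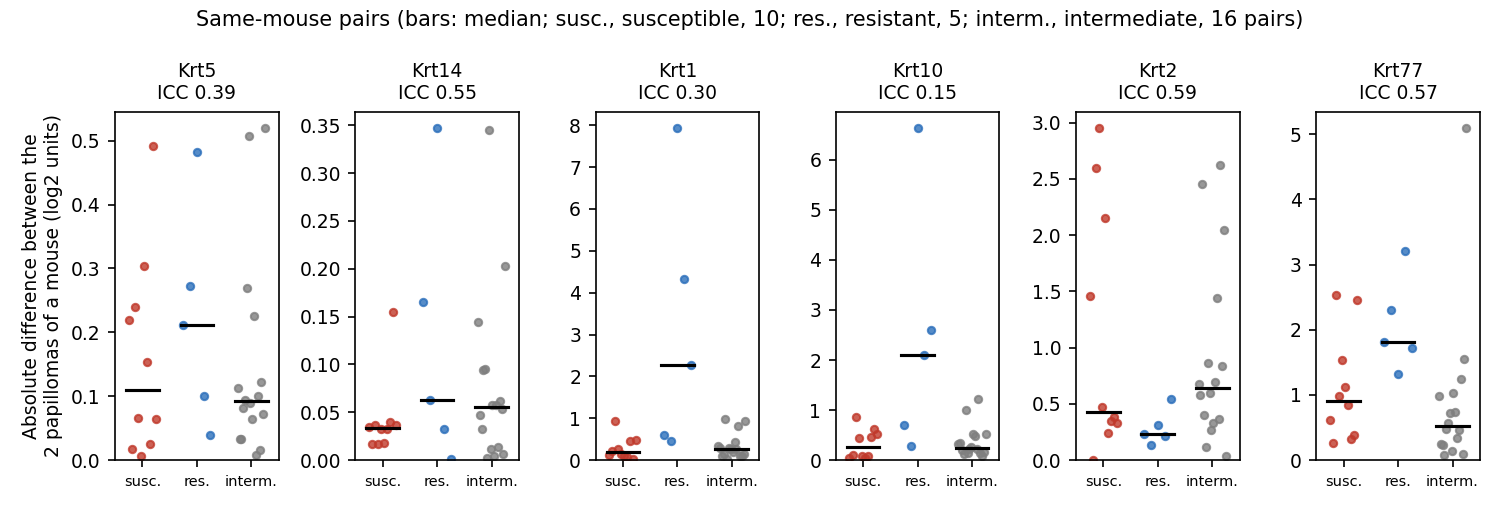
Absolute log2 difference between the 2 papillomas of a mouse (y axis, a scale of its own for each gene) for 10 susceptible, 5 resistant and 16 intermediate pairs, with the median as a bar and the intraclass correlation (ICC) over all 31 pairs above each panel. The large Krt1 and Krt10 gaps belong to 3 resistant pairs, while the large Krt2 gaps are in susceptible and intermediate pairs. Krt2 was above its array's median in 0 of 11 resistant arrays.

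The keratins were set against each other over mice, beginning with the filament pairs. Over the 37 mice, which share one normalization, Krt1 and Krt10 had Pearson's r = 0.940 and Spearman's rho = 0.968, each with a permutation p of 1e-05, the smallest that 100000 permutations can give (adjusted over 15 relations, 7.5e-05 and 5e-05). Without mice 32 and 34, the farthest from the median, r was 0.923. It was 0.942, 0.989 and 0.974 within the 3 start cohorts of at least 6 mice. Between the papillomas of a mouse, Krt1 and Krt10 differed in the same direction in 30 of 31 pairs.

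Krt5 and Krt14 had r = 0.879 (permutation p = 1e-05, adjusted 7.5e-05) and rho = 0.691 (permutation p = 2e-05, adjusted 7.5e-05). Without mice 31 and 36 r was 0.698, and within the cohorts it was 0.923, 0.959 and 0.461. In the same-mouse pairs the direction was the same in 20 of 31. Relations across the layers were also found. Krt14 had r = 0.582 and rho = 0.615 with Krt1 (adjusted permutation p = 0.0174 and 0.00018), r = 0.495 and rho = 0.534 with Krt10 (0.0174 and 0.00205) and r = 0.428 and rho = 0.508 with Krt2 (0.0174 and 0.00321). Without mice 32 and 36 these r were 0.536, 0.489 and 0.435. The same-mouse direction was shared in 19, 18 and 16 of 31 pairs, close to that of Krt5 and Krt14. Krt5 with Krt1 had r = 0.370 and rho = 0.234 (adjusted permutation p = 0.0502 and 0.223).

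Krt2 followed Krt1 and Krt10, with r = 0.480 and 0.576 and rho = 0.691 and 0.669 (adjusted permutation p of r, 0.00604 and 0.0014, and of rho, 5e-05 for both). Without mice 32 and 34 r was 0.635 and 0.621. Within the 3 start cohorts r with Krt1 was 0.641, 0.511 and 0.897 and with Krt10 it was 0.692, 0.569 and 0.889. The relation of Krt77 to Krt1 was weaker: r was 0.393 with all mice (permutation p = 0.0166, adjusted 0.0312), rho was 0.238 (adjusted p = 0.223), and r was 0.042 without mice 32 and 34, so the relation over all mice rests on them. Within the start cohorts it was uneven, at 0.112, 0.493 and 0.772 in the cohorts of 6, 8 and 9 mice. Krt77 with Krt10 had r = 0.355 (adjusted permutation p = 0.0502) and 0.070 without these mice, and 0.080, 0.535 and 0.762 within the cohorts.

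**Figure D5:**
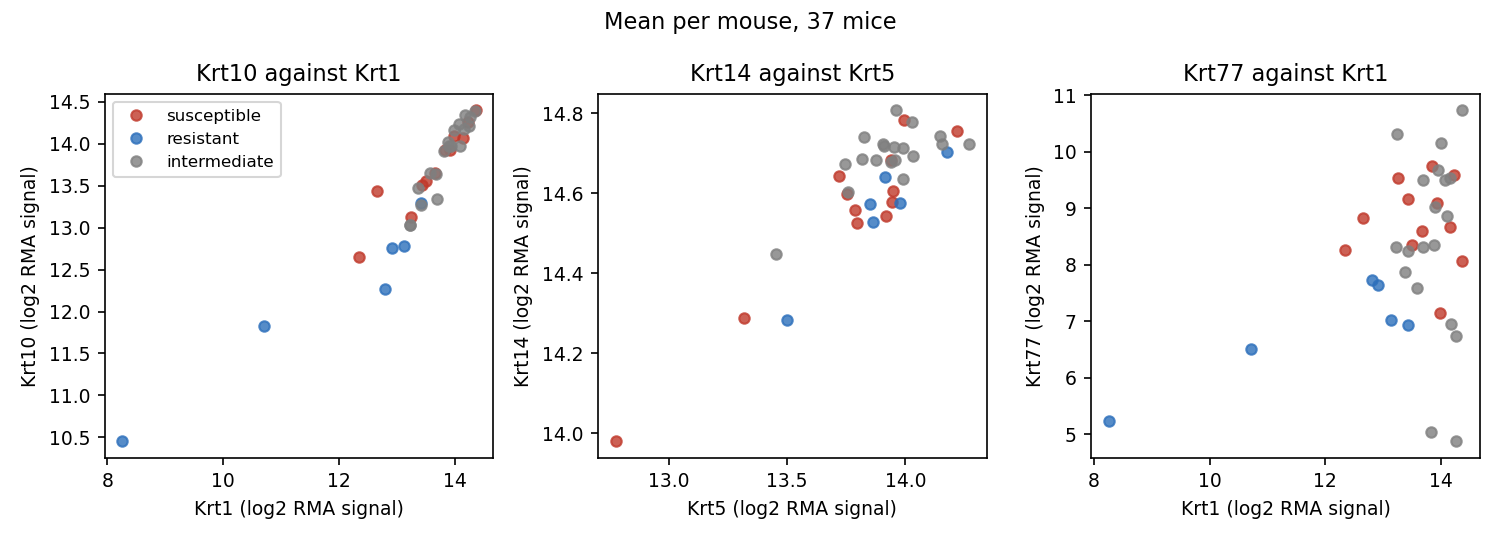
Mean log2 RMA signal per mouse of Krt10 against Krt1, Krt14 against Krt5 and Krt77 against Krt1, with susceptible, resistant and intermediate mice in color (37 mice). Krt10 follows Krt1 along a line down to mouse 32, and Krt77 has no such order among mice whose Krt1 level is above 13.

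The genes most like each keratin across the 37 mice were found by Pearson's r among the tested probesets, as a description. Beside each other, Krt1 and Krt10 had Calm4, a calmodulin-like gene of the upper epidermis, as the next gene (r = 0.908 and 0.923), then Capns2, a calpain small subunit, for Krt1 (0.868) and Them5, a thioesterase, for Krt10 (0.874). For the log ratio the first was Calm4 (0.925), followed by Rnase2b (0.837) and Sdr16c5 (0.836), and without mice 32 and 34 these were 0.854, 0.579 and 0.710. For Krt14 they were Krt6a, a keratin of wounded and hyperplastic epidermis (0.915), Trim29 (0.888) and Krt5. For Krt5 they were Krt14, Sdc1, which encodes syndecan-1 (0.840), and Atp2a2, a calcium pump of the endoplasmic reticulum (0.836). By rank these 2 were lower, with Spearman's rho of 0.684 for Sdc1 and 0.541 for Atp2a2.

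Krt2 and Krt77 had other neighbours. For Krt2 these were Gjb5, a connexin (0.769), Osbpl1a (0.737) and Sphk1, a sphingosine kinase (0.718). For Krt77 they were Krt79, a type II keratin of the hair follicle opening (0.804), Far2, a fatty acyl-CoA reductase (0.791), and Atp12a, a proton-potassium pump (0.770).

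Other genes of the epidermal layers were read from lists, each gene by its probeset of highest mean. Of 12 spinous layer genes 11 were higher in susceptible mice, with a median difference of 0.39, against 0.01 over all tested probesets. None passed the adjusted limit in limma and 7 had an unadjusted p under 0.05, all higher, against 5.57% of all probesets. Without the 2 arrays of low Krt1 this was 4 of 12 (median 0.23, against 3.63% of all probesets), and without those of low Actb ratio 3 of 12 (median 0.21, against 3.29%). Calm4, Dmkn and Dsg1a were in each of these counts. The largest were Dsc1, a desmosomal cadherin (11.96 ± 0.48 in susceptible and 10.89 ± 0.98 in resistant mice, SD), Dsg1a, another (10.53 ± 0.60 in susceptible and 9.49 ± 0.57 in resistant mice), Dapl1 (9.47 ± 0.61 in susceptible and 8.48 ± 1.06 in resistant mice) and Calm4 (14.12 ± 0.24 in susceptible and 13.40 ± 0.57 in resistant mice).

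Of 11 tested genes of basal layer adhesion 10 were lower in susceptible mice, with a median of -0.29. None passed in limma and 2 had an unadjusted p under 0.05, where 9.52% of all probesets had, so this count is no result about the list. They were the integrin genes Itga3 (9.05 ± 0.51 in susceptible and 9.65 ± 0.20 in resistant mice, SD) and Itgb4 (9.68 ± 0.47 in susceptible and 10.13 ± 0.24 in resistant mice). Lamb3 and Lama3, chains of the laminin that anchors basal cells, had -0.50 ± 0.25 and -0.44 ± 0.31 (SE). In papilloma 1 of mouse 32 the summed spinous level was the lowest of the series (14.60) and the summed basal adhesion level the highest (14.53). In papilloma 1 of mouse 34 they were 16.12 and 13.86, against medians of 16.63 and 13.73 over all arrays.

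Of 12 tested genes of desmosomes and keratin anchoring 8 were higher in susceptible mice (median 0.10) and none passed in limma, with Dsc3 at 0.50 ± 0.18 (SE, the 1 unadjusted p under 0.05) and Dsg2 at -0.61 ± 0.30 as the largest, followed by Eppk1 (0.34 ± 0.25) and Pkp3 (0.30 ± 0.18). Of 17 regulators of stratification 13 were higher (median 0.17), none passed in limma and 2 had an unadjusted p under 0.05: Gata3 (0.81 ± 0.28) and Cebpa (0.49 ± 0.13, adjusted p = 0.154). The counts of 1 of 12 and 2 of 17 are near the 9.52% of all probesets at that limit and are no result about these lists. Ovol1 and Tfap2c had 0.44 ± 0.25 and 0.28 ± 0.19. Of 7 mitosis genes 6 were lower (median -0.13), none at an unadjusted p under 0.05, led by Plk1 (-0.22 ± 0.30) and Cdk1 (-0.22 ± 0.18).

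Markers of other cells that a papilloma can hold were read in the same way, and none passed in limma or at an unadjusted p under 0.05. All 7 endothelial markers were lower in susceptible mice (median -0.23), led by Cdh5 (-0.51 ± 0.29, SE), Flt1 (-0.36 ± 0.21), Kdr and Esam. The log2 of their summed level was 9.58 to 11.30 in susceptible, 9.68 to 11.55 in resistant and 9.40 to 10.67 in intermediate arrays. Over mice their r with the keratin ratio ran from -0.325 (Tek) to -0.652 (Flt1), with Cdh5 at -0.642. Mice 32 and 34 had the lowest ratios (-4.53 and -2.92). Their papilloma 1 arrays had summed endothelial levels of 11.26 and 11.07, against a median of 10.13 over all arrays. No r without these mice was taken, and whether the relation rests on them was not tested. All 10 hair keratins were lower in susceptible mice (median -0.45), led by Krt33a (-0.92 ± 0.91) and Krt27 (-0.63 ± 0.78). Their log2 summed level was 8.17 to 13.73 in susceptible, 8.30 to 12.52 in resistant and 8.24 to 14.50 in intermediate arrays.

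Of 8 striated muscle markers 7 were higher in susceptible mice (median 0.25), with Mylpf at 0.48 ± 0.69 (SE) and Acta1 at 0.37 ± 1.04, and summed levels of 8.24 to 13.26 in susceptible, 8.22 to 13.60 in resistant and 8.23 to 12.43 in intermediate arrays. Of 7 fibroblast markers 4 were higher (median 0.01), with Lum at 0.40 ± 0.43 and Col1a1 at -0.31 ± 0.33, and summed levels of 14.40 to 16.18 in susceptible, 13.32 to 16.10 in resistant and 13.62 to 16.16 in intermediate arrays. Of 8 immune markers 5 were higher (median 0.05), with Lyz2 at 0.35 ± 0.44 and Itgam at -0.35 ± 0.36, and summed levels of 11.22 to 13.70 in susceptible, 10.46 to 13.76 in resistant and 10.54 to 14.31 in intermediate arrays. No marker of these 5 lists was below its array's median in every array. The part of these cells in the keratin values was not tested.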

How the data were processed

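The deposited values were log2 signals per probeset of the Affymetrix mouse whole-genome array, made by the authors with RMA (background correction, quantile normalization and probe summary), as the submitters' processing notes name it. The version is not given in the sources used here. Of 45101 probesets 34945 had 1 gene symbol in the platform annotation, 932 had several, 9160 had none and 64 were controls. Tests used the 21581 probesets (12605 genes) with 1 symbol that exceeded the median of the array in 11 or more of the 68 arrays. Arrays carry no read depth, so their number limits the precision.

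Papillomas of a mouse were averaged on the log2 scale. Classes, papilloma number, coat (with sex) and carcinoma array were tested in limma (3.58.1, under R 4.3.3) with Benjamini-Hochberg adjustment over all tested probesets. Intraclass correlations used a 1-way F test, and single probesets an exact permutation over mice. The methods' SAM over arrays was not run, and a limma fit with arrays as samples took its unit. Scripts were tested on simulated data. Other steps used Python 3.11.15 with scipy 1.17.1. The keratins and all gene lists were chosen with earlier results of these data known. The text names every keratin probeset, the 3 genes most like each keratin and the ratio, and up to 4 genes of largest absolute class difference from each list. Promoters are from RefSeq, and 5 of the 6 genes matched an entry. Skin, carcinomas and genotypes were not analysed here.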

Additional observations from a re-analysis of the deposited data

Results flagged for a closer look

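In 18 combinations of a keratin measure and a group of 4 to 10 mice, 3 values of 2 mice lay far from the others of their group, a gap that chance gives in about 1 of 20 groups. Krt2 was 4.57 in resistant mouse 37, against 3.33 to 3.54 in the other 5 resistant mice. Krt1 was 10.72 in mouse 34, one of the 6 mice without a carcinoma array, against 13.24 to 14.36 in the other 5. The type II log ratio, Krt1 minus Krt5, was -3.14 in the same mouse, against -0.75 to 0.42 in the others. Mouse 34 is a resistant mouse, its value rests on papilloma 1, and both of its values share the Krt1 level.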

How the results depend on the processing

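The class differences of Krt1, Krt10, Krt2 and Krt77 were positive and that of Krt5 negative under every alternative run, with ranges over the 18 left-out mice of 1.02 to 2.05 for Krt1, 1.13 to 1.70 for Krt10, 0.87 to 1.24 for Krt2, 1.59 to 2.09 for Krt77, -0.20 to -0.03 for Krt5 and -0.0593 to 0.0457 for Krt14. Krt14 (-0.0057) turned positive with mouse as a random block (0.0173), arrays as samples (0.0341), the replicate block on the papilloma number of the title (0.0179), the Actb ratio as covariate (0.0331), arrays centred on their median (0.0057) and classes at 24 weeks (0.0679). The 11 probesets called over all genes became 19 with all 37 mice, 366 with arrays as samples, 28 (26 higher, 2 lower, against 9 and 2) with arrays centred on their median, 28 without mice of doubtful sex label, 6 with the Actb ratio, 2 with mouse as a random block, 2 with the replicate block, 1 with cohort as a block, 0 from papilloma 1, 0 with sex and coat, 0 at 24 weeks, and, in 2 alternatives chosen after seeing the data, 0 without the arrays of low Actb ratio and 3 without those of low Krt1. With 1 mouse left out they numbered 4 to 89 (89 without mouse 29, 36 without mouse 37, 19 without mouse 10 or 31, 4 without mouse 34, 6 without mouse 1). The 0 keratin probesets called became 1 with all 37 mice (Krt10, adjusted limma p = 0.0150), 2 with arrays as samples (Krt10, 0.0459, and Krt77, 0.00843), 1 with arrays centred on their median (Krt77, 0.0440), 1 without mice of doubtful sex label (Krt77, 0.0449), and 0 to 1 with 1 mouse left out. For the papilloma number, 1 called probeset became 11 with cohort as a block, 110 without mice of doubtful sex label, 0 at 24 weeks and 0 in intermediate mice alone, and stayed 1 without the arrays of low Krt1 or of low Actb ratio, both also chosen after seeing the data. For coat, 16 became 4 with class as a covariate. The class difference of the keratin ratio, 1.67, was 2.75 from papilloma 1 and 0.79 without the arrays of low Krt1 (1.20 to 1.92 with 1 mouse left out). Same-mouse calls were 15312 and between 12562 and 16789 under the alternatives, with 4 to 7 of the 8 keratin probesets among them. The cause of these changes was not tested. Under the replicate block Krt77 was 1.97 and Krt10 1.52 (adjusted limma p = 0.143 and 0.302), and no keratin call changed. Krt2 was above its array's median in 18 of 68 arrays, which limits what its low values can show.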
